A study of Mus musculus with 18 samples.

Results

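The transcripts described here encode 10 heat shock chaperones, Hspa8, Hspa1a, Hspa1b, Hsph1, Hsp90aa1, Hsp90ab1, Dnaja1, Dnajb1, Hspd1 and Hspe1. They were chosen by gene symbol, with earlier results of these data known, and 10 of 10 were found among the 24781 gene entries of the count table. The cells were group 2 innate lymphoid cells (ILC2), lymphocytes without rearranged antigen receptors that secrete type 2 cytokines, sorted by flow cytometry from mouse lung and bone marrow. The mice lacked CD45, the receptor tyrosine phosphatase encoded by Ptprc, together with Rag2 (CD45 KO x Rag2 KO, here CD45 KO), or lacked Rag2 alone (Rag2 KO, here control). All groups therefore came from hosts without T and B cells. There were 3 libraries in each of 6 groups: lung, mature marrow and immature marrow ILC2 (the last also labelled ILC2P), each from CD45 KO and control mice. The labels used here name no age, sex or strain, and do not say whether the libraries of a group came from different mice. The p-values then measure the spread between these libraries, which may be technical.

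Chaperones bind unfolded or unstable proteins and release them through cycles of ATP hydrolysis. HSP70 proteins take up extended chains, J proteins deliver substrates and speed up ATP hydrolysis, and HSP110 proteins exchange the nucleotide. HSP90 acts later and holds kinases and steroid receptors in a form that can be activated, Src-family kinases of lymphocytes among them. Many of these genes are switched on by heat shock factor 1, which binds repeats of the unit GAA in alternating orientation. Hspd1 and Hspe1 encode the chaperonin of the mitochondrial matrix and its lid, so they are not cytosolic chaperones, and they are described separately.

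The promoter elements are shown because heat shock factor 1 acts through such repeats. RefSeq promoter windows (build GRCm38.p6, 250 bases before to 50 after a start site) were matched for 7 of the 10 members. These 7 were Hspa1a, Hspa1b, Hspd1, Hspe1, Hsph1, Dnaja1 and Dnajb1. Both strands were searched for a pair of facing units (GAANNTTC or TTCNNGAA) and for 3 units in a row (TTCNNGAANNTTC or GAANNTTCNNGAA), which contains the pair. The pair was present for 6 of the 7 members, all but Dnajb1, and for 17% of the 27025 genes with a window. The run of 3 units was present for Hspd1, Hspe1 and Hsph1, and for 0.662% of genes. In the sequences, capitals mark the matched element, each is written 5′ to 3′ on the strand of its gene, and the names give that strand.
Hspa1a chr17:34972243-34972270 minus strand: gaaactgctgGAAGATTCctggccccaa
Hspa1b chr17:34959325-34959352 minus strand: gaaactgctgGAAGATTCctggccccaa
Dnaja1 chr4:40722334-40722361 plus strand: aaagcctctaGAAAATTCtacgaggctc
Hspe1 chr1:55088053-55088082 plus strand: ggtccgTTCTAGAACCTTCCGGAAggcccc
Hspd1 chr1:55088053-55088082 minus strand: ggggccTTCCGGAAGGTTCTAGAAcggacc
Hsph1 chr5:149636352-149636379 minus strand: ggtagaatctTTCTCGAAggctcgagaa
Hsph1 chr5:149636287-149636308 minus strand: gctgcagaTTCTGGAAAGTTCt

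Counted from the start site, the elements began at position -104 in Hspa1a and in Hspa1b and at -124 in Dnaja1. Hspd1 and Hspe1 are divergent neighbours and share 1 element, which began at -89 from the Hspe1 start. RefSeq lists 2 starts for Hspd1, and the element began at -144 from the inner one and at position 167 after the outer one. In GENCODE M21 it lay in an exon of Hspd1, the Hsph1 elements in exons of Hsph1 and the Dnaja1 element in an exon of Dnaja1, and the Hspa1a and Hspa1b elements overlapped no exon. The Hsph1 elements began at -33 and, for the run of 3 units, at position 36 after the start. The windows of Hspa1a and Hspa1b were identical at 296 of 300 aligned bases (98.7%), and their coding sequences at 1918 of 1929 alignment columns (99.4%). The parts of the transcripts after the stop codon matched at 391 of 813 alignment columns (48.1%). Columns with a gap count as unmatched, so a difference in length also lowers this percentage. A match to these letters is a description of the sequence and does not show binding.

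Libraries held 68077 to 122250 counts, and 1916 genes passed a filter on low counts and were tested. In marrow the CD45 KO libraries tended to be deeper. Immature libraries held 97559 to 117933 counts in CD45 KO and 84446 to 94758 in control, without overlap. Mature libraries held 87335 to 122250 in CD45 KO and 69987 to 103057 in control. The part of depth in the marrow results was not tested. Levels are CPM, counts per 1000000 counts of a library size scaled by a TMM factor, and 1 count was worth 8.42 to 14.9 CPM. Ptprc, the deleted gene, was lower in CD45 KO ILC2 and passed the test in each population. Its group means were 165 CPM in CD45 KO and 579 CPM in control lung ILC2, 142 CPM in CD45 KO and 418 CPM in control mature ILC2, and 93.01 CPM in CD45 KO and 389 CPM in control immature ILC2. In mature ILC2 the genotypes nearly met. Ptprc was at 238 CPM (20 counts) in CD45 KO replicate 1 and at 253 CPM (17 counts) in control replicate 1. It therefore does little to tell the genotypes of these libraries apart. The other mature libraries were at 101 and 88.0 CPM in CD45 KO and at 458 and 541 CPM in control. All 10 ILC2 markers were present in every group. The library labelled mature CD45 KO replicate 1 stood apart: its chi-square per degree of freedom against its 2 group mates was 4.33 and 4.74, where the other pairs of libraries in a group lay between 1.14 and 2.29. In the mature control group 4 of 5 neutrophil markers had counts, with summed levels of 80.2 to 2116 CPM, against 25.3 to 35.7 CPM over 3 of 5 markers in mature CD45 KO ILC2, and Ly6g was at 0 in both. The highest of these sums was that of mature control replicate 1. Beside calls of chaperone genes that involve mature ILC2, the adjusted p without either replicate 1 that its libraries include is also given.

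Of the 10 members, 6 passed the filter: Hspa8, Hsp90aa1, Hsp90ab1, Dnaja1, Hspd1 and Hspe1. The other 4 were not tested, because Hspa1a had 5 counts over the 18 libraries, Hspa1b 20, Hsph1 84 and Dnajb1 103. The plot of levels by library shows all 10.

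**Figure D1:**
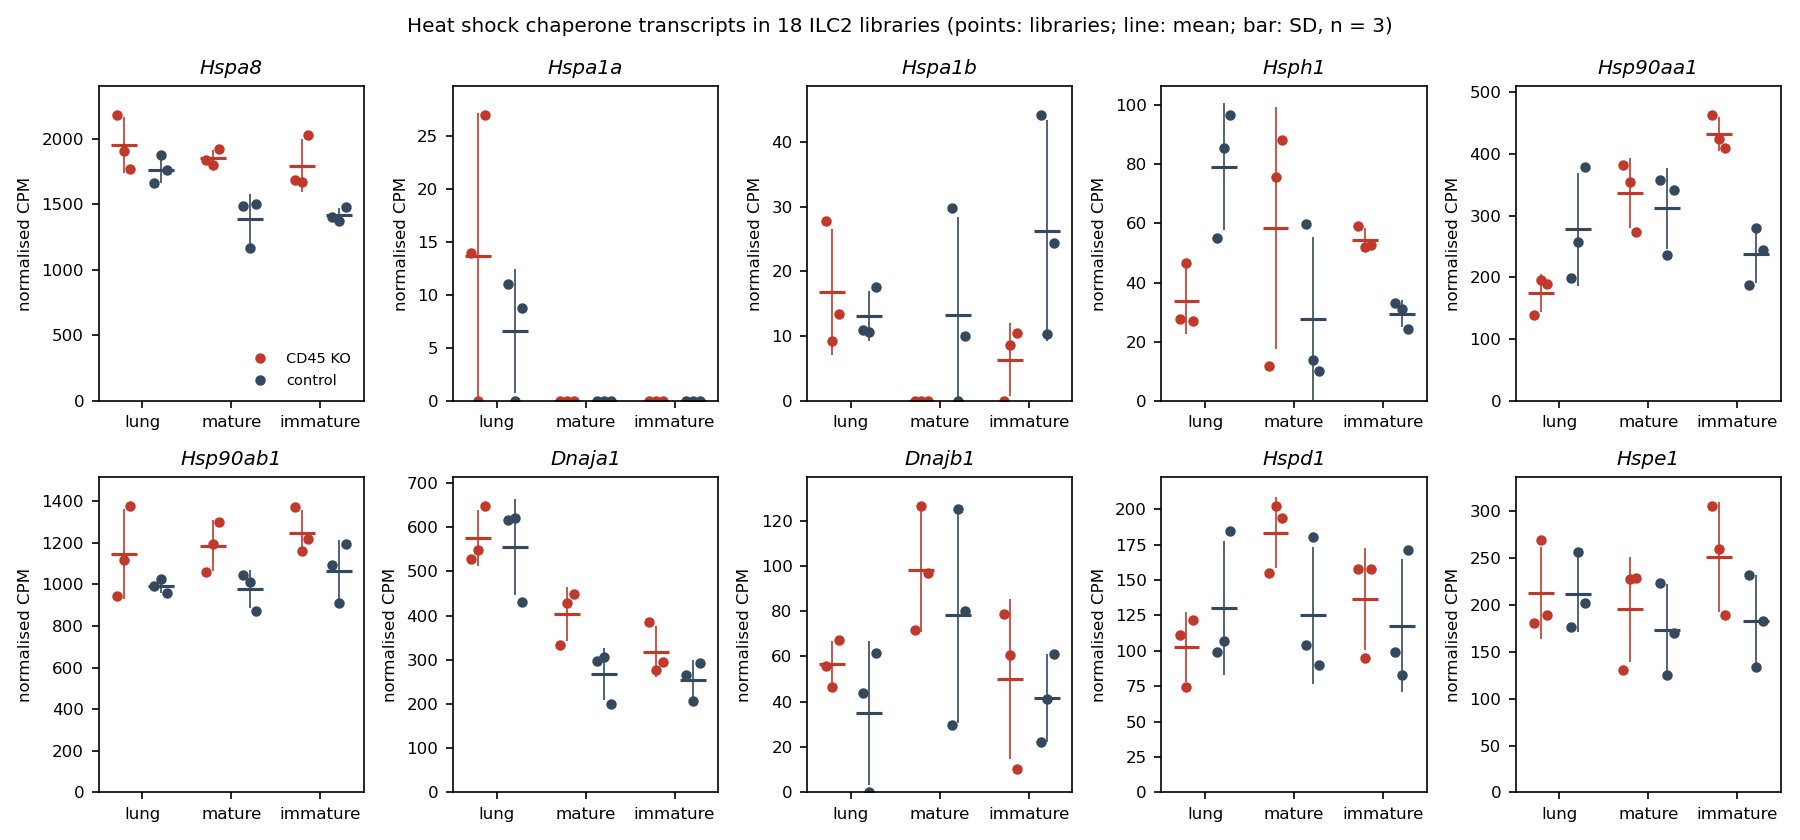
Levels of the 10 chaperone transcripts in normalised CPM (vertical axis, a separate linear scale for each gene starting at 0) in lung, mature marrow and immature marrow ILC2, with CD45 KO in red and control in dark blue; points are libraries, lines are means and bars are SD (n = 3). Hspa8 lay between 1670.1 and 2027 CPM in the 6 marrow CD45 KO libraries, above all 6 marrow control libraries, and Hsp90aa1 was highest in immature CD45 KO ILC2 and lowest in lung CD45 KO ILC2.

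Loss of CD45 went with more Hspa8 transcript in marrow ILC2 and with more Hsp90aa1 transcript in immature marrow ILC2, while no member passed the test in lung ILC2. Both marrow calls have limits. Hspa8 passed in neither marrow population alone, and only in a contrast of both that was added after their values had been seen. The Hsp90aa1 call was lost in 5 of the 6 fits that each left out 1 library. In mature ILC2, 0 of the 6 tested members passed at an adjusted p of 0.05 in edgeR's quasi-likelihood test, against 0.261% of all tested genes. At an unadjusted p under 0.05 there were 3 of the 6, against 9.03% of all tested genes, and DESeq2's Wald test also called none. In immature ILC2, 1 of 6 passed, Hsp90aa1, which was higher, against 1.67% of all tested genes in either direction and 1.1% as higher, and 2 of 6 had an unadjusted p under 0.05, against 12.3%. In lung ILC2, 0 of 6 passed against 2.51% of genes, with 1 at an unadjusted p under 0.05, against 14.5% of genes. The 6 fold changes were positive in both marrow populations, with medians of 0.36 (log2) in mature and 0.33 in immature ILC2, and 4 of 6 were positive in lung, with a median of 0.06. The medians over all tested genes were 0.00, -0.01 and 0.01 in mature, immature and lung ILC2. The members were chosen with earlier results of these data known. Shares and medians set beside those of all tested genes are therefore descriptions and do not test the members as a set. In a bulk library, more of a transcript per cell and a larger share of cells that make it cannot be told apart.

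Hspa8 (chr9:40800984-40810087, plus strand, mm10, GENCODE M21) encodes HSC70, the constitutive cytosolic HSP70 that folds new chains and uncoats clathrin vesicles. In mature ILC2 it measured 1835, 1803 and 1918 CPM in CD45 KO libraries, against 1490.3, 1166 and 1504 CPM in control libraries. In immature ILC2 it measured 1686, 1670.1 and 2027 CPM in CD45 KO, against 1404, 1375 and 1477 CPM in control. All CD45 KO libraries were thus above all control libraries in each marrow population. In each population alone the difference missed the threshold (log2 fold change 0.41 ± 0.13 SE, adjusted p = 0.194 in mature, and 0.34 ± 0.13, adjusted p = 0.227 in immature, edgeR).

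The mean of both marrow effects was tested as 1 contrast, added after the values of each population had been seen. There Hspa8 rose by 0.37 ± 0.09 (log2, 95% interval 0.19 to 0.56, a 1.30-fold difference, edgeR adjusted p = 0.0133). It was the single member of 6 to pass, against 2.97% of all tested genes in either direction and 1.46% as higher, and 0.992% of genes had all 6 CD45 KO libraries above all 6 control libraries. The Hspa8 call did not need the library that stood apart (adjusted p = 0.00581 without mature CD45 KO replicate 1, and 0.0139 without mature control replicate 1). It was lost in 2 of the 12 fits that left out 1 library, with adjusted p = 0.0631 without mature control replicate 2 and 0.0550 without immature CD45 KO replicate 3.

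In lung ILC2, Hspa8 measured 2183, 1908 and 1768 CPM in CD45 KO libraries, against 1664, 1872 and 1759 CPM in control libraries, and these ranges overlapped. The difference of 0.14 ± 0.13 (log2) did not pass (edgeR adjusted p = 0.717). In order of group means Hspa8 ran from lung CD45 KO (1953 ± 212 CPM, SD, n = 3) through mature CD45 KO (1852 ± 59.6), immature CD45 KO (1794 ± 202) and lung control (1765 ± 104) to immature control (1419 ± 52.4) and mature control (1387 ± 191). Neighbours in this order overlapped, except that every lung control library lay above every immature control library.

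HSP90 has a stress-inducible cytosolic form, HSP90-alpha, encoded by Hsp90aa1 (chr12:110690605-110702728, minus strand), and a constitutive one, HSP90-beta, encoded by Hsp90ab1 (chr17:45567775-45573271, minus strand). In immature ILC2, Hsp90aa1 measured 463, 424 and 409.6 CPM in CD45 KO libraries, against 188, 279 and 244 CPM in control libraries, with no overlap. It rose by 0.86 ± 0.23 (log2, 95% interval 0.40 to 1.32, edgeR adjusted p = 0.0296), a 1.81-fold difference. The values rested on 39 to 49 counts per CD45 KO library and 17 to 27 per control library. The call was lost in 5 of the 6 fits without 1 library, each CD45 KO replicate except 3 and every control replicate, with the highest adjusted p at 0.215 without control replicate 1, and DESeq2's Wald test gave an adjusted p of 0.224. The summed level of the 10 ILC2 markers was 5997 to 6793 CPM in immature CD45 KO and 7237 to 8436 CPM in immature control libraries, without overlap, and its part in the marrow results was not tested.

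In the other populations Hsp90aa1 did not pass. In mature ILC2 it measured 381, 354 and 273 CPM in CD45 KO, against 358, 236 and 341 CPM in control, and the groups overlapped (0.09 ± 0.23 log2, adjusted p = 0.963, edgeR). Over both marrow populations the effect was 0.47 ± 0.16 (adjusted p = 0.0931, edgeR). In lung ILC2 it measured 139, 195 and 189 CPM in CD45 KO, against 198, 257 and 378 CPM in control. Each lung CD45 KO library was below each lung control library, by a margin of less than 1 count's worth of CPM at the nearest pair, and the difference of -0.68 ± 0.27 (log2) did not pass (edgeR adjusted p = 0.195). Of all tested genes, 19.7% had lung groups that did not overlap, counting both directions. Macrophage and monocyte markers summed to 0 to 153 CPM in lung CD45 KO, with 4 of 5 counted and Csf1r at 0, and all 5 were at 0 in lung control. Mast cell and basophil markers summed to 0 to 18.6 CPM in lung CD45 KO and 35.2 to 53.5 CPM in lung control, with 1 of 5 counted in each. Their part in the lung results was not tested.

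The CD45 effects on Hsp90aa1 in lung and marrow differed from each other. The effect in lung minus the mean effect in marrow was -1.15 ± 0.32 (log2, 95% interval -1.78 to -0.52, edgeR adjusted p = 0.0448). It was the 1 member of 6 to pass, against 1.25% of all tested genes in either direction and 0.418% as lower. The call was lost in 13 of the 18 fits without 1 library, with the highest adjusted p at 0.335 without lung control replicate 3, where the difference was -0.83, and also with DESeq2 size factors (adjusted p = 0.0522), without a filter (0.114) and with at least 10 counts in 3 libraries (0.0595). It was 0.0543 without mature CD45 KO replicate 1 and 0.0488 without mature control replicate 1. The effects in immature and mature ILC2 differed by 0.77 ± 0.33 (adjusted p = 0.946), and no gene passed for that contrast in edgeR or DESeq2, against 94 genes at an unadjusted p under 0.05.

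Hsp90ab1 was higher in each marrow CD45 KO group by amounts that did not pass. In mature ILC2 it measured 1060.3, 1196 and 1302 CPM in CD45 KO, against 1043, 1013 and 872 CPM in control (0.30 ± 0.15 log2, adjusted p = 0.553, edgeR). In immature ILC2 it measured 1370.1, 1159.6 and 1218 CPM in CD45 KO, against 1095, 909.7 and 1196 CPM in control (0.23 ± 0.15, adjusted p = 0.539, edgeR). The mature groups did not overlap and the immature groups did. In lung ILC2 it measured 946, 1117 and 1376 CPM in CD45 KO, against 992, 1027 and 958 CPM in control, and the groups overlapped (0.21 ± 0.15, adjusted p = 0.592, edgeR).

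The balance of the inducible to the constitutive HSP90 transcript was followed as the percentage of counts of the pair that came from Hsp90aa1. In lung ILC2 it was 12.8, 14.9 and 12.1% in CD45 KO, against 16.7, 20 and 28.3% in control. In immature ILC2 it was 25.3, 26.8 and 25.2% in CD45 KO, against 14.7, 23.5 and 16.9% in control. The groups did not overlap in either population, and the order was opposite in the 2. A two-sided exact permutation test gave p = 0.1 for each, the smallest p that 3 libraries against 3 allow. Groups without overlap always give this p. The percentages reuse the Hsp90aa1 counts compared above, so they are not separate evidence. In mature ILC2 the percentage averaged 22.2 ± 4.60% in CD45 KO and 24.2 ± 4.75% in control (SD, n = 3 each, exact permutation p = 0.6).

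**Figure D2:**
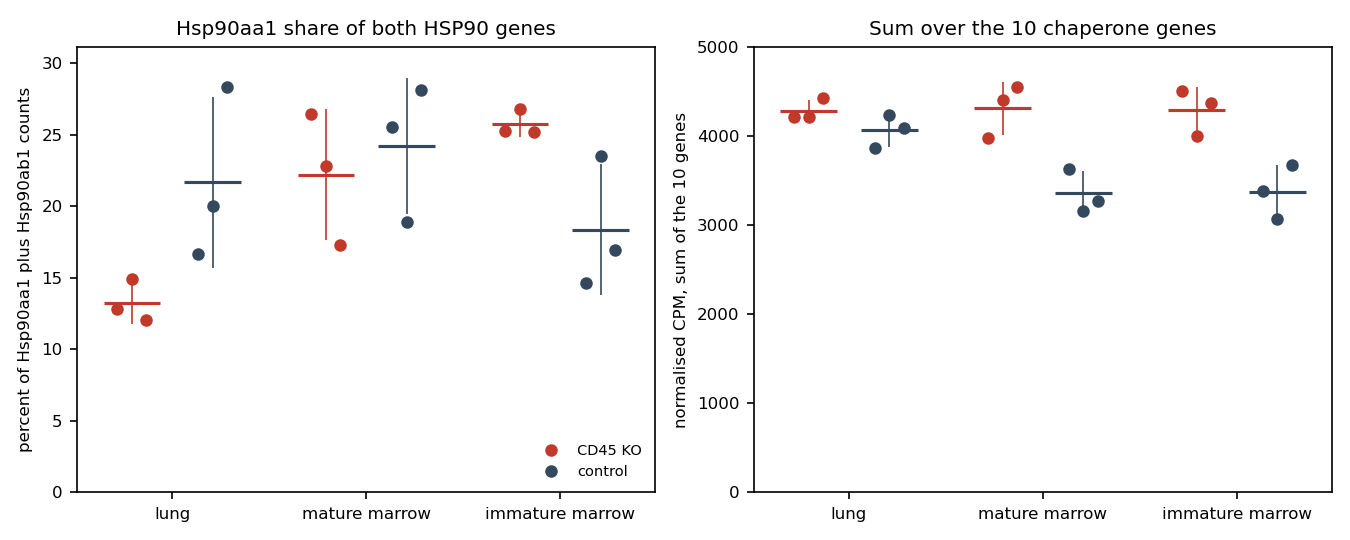
Left, percentage of the counts of Hsp90aa1 plus Hsp90ab1 that came from Hsp90aa1; right, summed normalised CPM of the 10 chaperone genes; both by population, with CD45 KO in red and control in dark blue, points for libraries, lines for means and bars for SD (n = 3). The percentage was lowest in lung CD45 KO ILC2 (12.1 to 14.9%), and the sum was at or above 3979 CPM in every marrow CD45 KO library and at or below 3673 CPM in every marrow control library. Hspa8, which itself did not overlap between the marrow genotypes, was the largest part of the sum.

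J proteins select substrates for HSP70. Dnaja1 (chr4:40722150-40737149, plus strand) encodes a farnesylated type I J protein. It measured 334, 429.6 and 449 CPM in mature CD45 KO ILC2, against 298, 305 and 201 CPM in mature control ILC2. These groups did not overlap, but the difference of 0.65 ± 0.23 (log2) did not pass (edgeR adjusted p = 0.301). In immature ILC2 it measured 384, 277 and 294 CPM in CD45 KO, against 265, 207 and 293 CPM in control, with overlap (0.33 ± 0.24, adjusted p = 0.621, edgeR). Over both marrow populations the effect was 0.49 ± 0.17 (adjusted p = 0.0816, edgeR), and it passed without mature CD45 KO replicate 1 (0.55, adjusted p = 0.0410). In mature ILC2, 3 of the 6 members (Dnaja1, Hspa8 and Hsp90ab1) had all CD45 KO libraries above all control libraries, against 6.58% of all tested genes. In immature ILC2, 2 of 6 did (Hsp90aa1 and Hspa8), against 9.39%. Because the members were chosen with earlier results of these data known, these shares do not test them as a set.

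Dnajb1, the type II J protein that is induced by heat, was counted too little to test. It averaged 98.2 ± 27.5 CPM in mature CD45 KO and 78.3 ± 47.6 CPM in mature control ILC2, 50 ± 35.4 CPM in immature CD45 KO and 41.5 ± 19.5 CPM in immature control, and 56.5 ± 10.5 CPM in lung CD45 KO and 35.2 ± 31.7 CPM in lung control (SD, n = 3 each). The groups of each pair overlapped, and no library had more than 15 counts.

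The stress-inducible HSP70 pair was close to the limit of detection in all populations. Hspa1a had 5 counts, in 4 of the 6 lung libraries and in 0 of the 12 marrow libraries, where a count of 0 allows up to 2.64 CPM over the 12 together. The 5 lung counts came to 9.07 CPM over the 6 lung libraries, 3 counts in CD45 KO (1, 0 and 2) and 2 in control (1, 0 and 1). Hspa1b had 20 counts in 13 libraries, 8 of the counts in lung, and 2 in CD45 KO and 10 in control marrow libraries. The marrow counts were 0 in mature CD45 KO against 3 in mature control, and 2 in immature CD45 KO against 7 in immature control, with 3 libraries each. The count of 0 allows up to 9.48 CPM over the mature CD45 KO libraries. These limits cover counting error only. Both genes carry the element GAAGATTC in their promoter windows.

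Hsph1 encodes HSP105, an exchange factor of HSP70, and had 1 to 11 counts per library. In lung ILC2 it measured 27.8, 46.5 and 27.0 CPM in CD45 KO, against 55.1, 85.6 and 96.7 CPM in control, with all CD45 KO libraries lower. In immature ILC2 it measured 59.1, 51.9 and 52.5 CPM in CD45 KO, against 33.2, 31.0 and 24.4 CPM in control, with all CD45 KO libraries higher. The gene carries a run of 3 heat shock units in its promoter window, as do Hspd1 and Hspe1. No window was matched for Hsp90aa1, and the part of this run in the levels was not tested. In mature ILC2 it measured 11.9, 75.8 and 88.0 CPM in CD45 KO, against 59.6, 13.9 and 10.03 CPM in control. The directions in lung and immature ILC2 were those of Hsp90aa1, but they rest on few counts. In lung, CD45 KO replicate 2 and control replicate 1 both had 5 counts and were set apart by library size alone. Immature libraries had 5 to 6 counts in CD45 KO and 2 to 3 in control. Of all tested genes, 19.7% had lung groups that did not overlap, counting both directions, and 9.39% had every immature CD45 KO library higher. These shares are over better counted genes, so they are not a background for Hsph1. Hsph1 did not pass the low-count filter and has no test.

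The mitochondrial pair did not pass in any population. Hspd1 measured 155, 202 and 194 CPM in mature CD45 KO, against 104, 180.4 and 90.2 CPM in mature control, with overlap (0.61 ± 0.33 log2, adjusted p = 0.603, edgeR). It averaged 137 ± 36 CPM in immature CD45 KO and 118 ± 46.8 CPM in immature control, and 102 ± 24.7 CPM in lung CD45 KO and 130.3 ± 47.3 CPM in lung control (SD, n = 3 each). Hspe1, the lid of the same chaperonin, averaged 251 ± 58.7 CPM in immature CD45 KO and 183 ± 48.9 CPM in immature control (0.47 ± 0.28 log2, adjusted p = 0.496, edgeR). Its means were 196 ± 56 CPM in mature CD45 KO and 173 ± 49.4 CPM in mature control, and 213 ± 49.2 CPM in lung CD45 KO and 212 ± 41 CPM in lung control. The 2 genes overlap by 112 bases at their starts, on opposite strands, and 5 pseudogenes are named after Hspd1 and 6 after Hspe1, none of which is in the table. The sources used here do not state whether strand was used in counting, so counts in shared bases are uncertain.

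**Figure D3:**
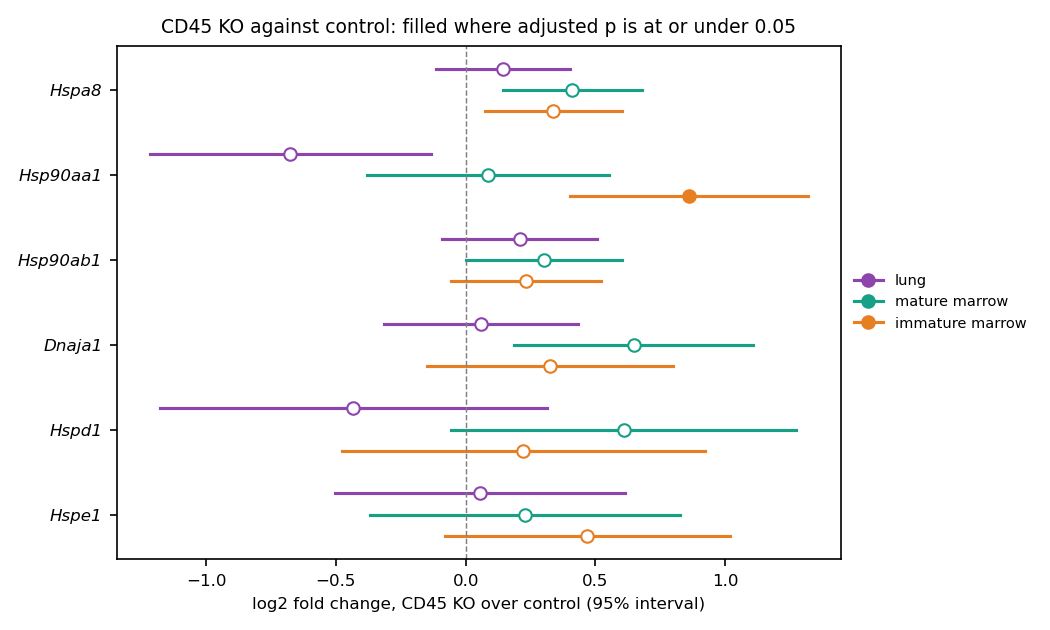
Log2 fold changes of CD45 KO over control (horizontal axis, 95% intervals from edgeR) for the 6 tested chaperones in lung (purple), mature marrow (green) and immature marrow ILC2 (orange), with filled points at an adjusted p of 0.05 or less. The single filled point is Hsp90aa1 in immature ILC2 at 0.86, and the lung value of the same gene is the lowest at -0.68.

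Summed over the 10 genes, the level was 3979, 4414 and 4549 CPM in mature CD45 KO and 4505, 4007 and 4369 CPM in immature CD45 KO libraries. In control libraries it was 3636, 3165 and 3278 CPM in mature and 3383, 3070.3 and 3673 CPM in immature ILC2. The marrow genotypes did not overlap. Hspa8 was the largest part of these sums, with group means of 1852 and 1794 CPM in mature and immature CD45 KO. Its means were 1387 and 1419 CPM in mature and immature control. The separation of the sums is therefore not independent of that of Hspa8 given above, and does not show a shift of all members. In lung ILC2 the sum was 4214, 4215 and 4426 CPM in CD45 KO, against 3869, 4236 and 4097 CPM in control, and these overlapped. No test was made on the sum, because its members were chosen with results known.

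Lung ILC2 differed from marrow ILC2 mainly in Dnaja1, which was higher in lung in both genotypes, and in Hsp90aa1, which was lower in lung in CD45 KO mice. In CD45 KO mice, 2 of the 6 tested members passed, 1 higher and 1 lower in lung, against 28.1% of all tested genes (16.6% higher and 11.4% lower). In control mice, 2 of 6 passed, both higher in lung, against 31.1% of all tested genes (17.6% higher). These 4 calls are those in which lung and marrow libraries did not overlap, which held for 26.9% of all tested genes in CD45 KO and 27.3% in control mice. The members' counts are near these backgrounds.

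Dnaja1 measured 528, 549 and 648 CPM in lung CD45 KO and 617, 620.4 and 431 CPM in lung control libraries. Every lung library of a genotype was above all 6 marrow libraries of that genotype, which reached 449 CPM in CD45 KO and 305 CPM in control. Over the mean of both marrow populations Dnaja1 was higher in lung by 0.67 ± 0.17 (log2, edgeR adjusted p = 0.00128) in CD45 KO and by 1.09 ± 0.18 (a 2.13-fold difference, edgeR adjusted p = 6.75e-07) in control. Both calls were kept in every fit without 1 library, with adjusted p = 0.00180 in CD45 KO without mature CD45 KO replicate 1 and 9.41e-07 in control without mature control replicate 1. The difference between the genotypes in this contrast, -0.43 ± 0.25, did not pass (edgeR adjusted p = 0.492). The end of Dnaja1 overlaps the end of Smu1 on the other strand by 608 bases, and Smu1 had 26 counts in lung and 85 in marrow, against 308 and 359 for Dnaja1.

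Hsp90aa1 was lower in lung than in marrow in CD45 KO mice (log2 difference -1.09 ± 0.23, edgeR adjusted p = 6.25e-05), a ratio of 0.469, with all 3 lung libraries (139 to 195 CPM) below all 6 marrow libraries (273 to 463 CPM). The call was kept in every fit without 1 library, also without mature CD45 KO replicate 1 (-1.03, adjusted p = 0.000202). In control mice the lung and marrow libraries overlapped, and the value was 0.06 ± 0.21 (edgeR adjusted p = 0.863). Hspa8 was higher in lung in control mice, by 0.33 ± 0.11 (edgeR adjusted p = 0.0200), with all 3 lung control libraries above all 6 marrow control libraries. That call was lost in 2 of 9 fits without 1 library, with adjusted p = 0.0703 without mature control replicate 2 and 0.0899 without lung control replicate 2, and was 0.0182 without mature control replicate 1. In CD45 KO mice Hspa8 differed by 0.10 ± 0.11 (edgeR adjusted p = 0.574). The comparisons of lung with marrow share their lung and marrow libraries with the comparisons of genotypes.

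Transcripts of immediate-early and dissociation genes, which can respond to handling of tissue but not only to that, moved with the same contrast. Of 20 such genes, 17 were tested, and 15 passed as higher and 1 as lower in lung in each genotype. Of all tested genes, 16.6% passed as higher in lung in CD45 KO mice and 17.6% in control mice. Their summed level was 17342 to 18425 CPM in lung CD45 KO and 11413 to 13149 CPM in lung control libraries, against 1148 to 1540 CPM in marrow libraries. In lung, 5 of the 17 passed as higher in CD45 KO than in control, against 2.51% of all tested genes in either direction. Their part in the results for lung ILC2 was not tested.

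**Figure D4:**
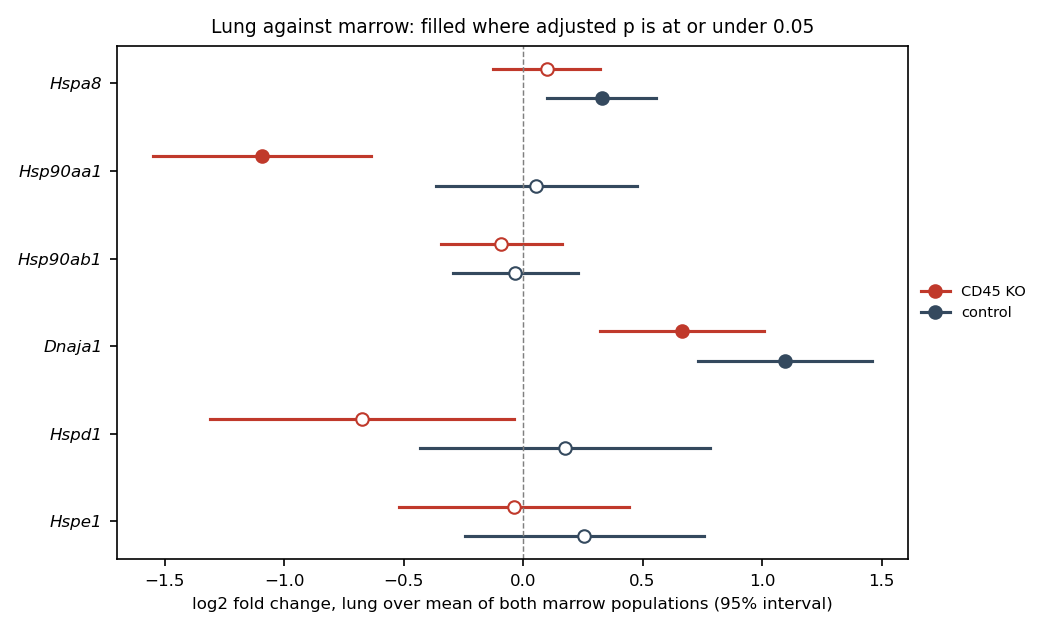
Log2 fold changes of lung over the mean of both marrow populations (horizontal axis, 95% intervals from edgeR) for the 6 tested chaperones in CD45 KO (red) and control mice (dark blue), with filled points at an adjusted p of 0.05 or less. Dnaja1 was higher in lung in both genotypes (0.67 and 1.09), Hspa8 was higher in control mice (0.33), and Hsp90aa1 was lower in CD45 KO mice (-1.09).

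No tested member passed between mature and immature marrow ILC2. In CD45 KO mice 0 of 6 members passed, against 0.678% of all tested genes, and in control mice 0 of 6, against 0.0522%. At an unadjusted p under 0.05 there were also 0 of 6 in each genotype, and DESeq2 called none. Libraries of the 2 stages did not overlap for 1 member in CD45 KO mice, against 12.6% of all tested genes. This was Hsp90aa1, with 273 to 381 CPM in mature and 409.6 to 463 CPM in immature ILC2 (-0.38 ± 0.21 log2, 95% interval -0.79 to 0.04, edgeR adjusted p = 0.675). For Hspa8 the 95% intervals ran from -0.20 to 0.30 in CD45 KO and from -0.31 to 0.25 in control mice.

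Other chaperone systems were followed through lists of their genes. The CCT chaperonin folds actin and tubulin in the cytosol, and 8 of its 8 subunit genes were tested. None passed between CD45 KO and control. For the mean marrow effect, the contrast added after values had been seen, all 8 values were positive. Their median was 0.26 (log2) where all tested genes had -0.0050. In single populations 7 of 8 were positive in mature, 6 of 8 in immature and 3 of 8 in lung ILC2, with medians of 0.36, 0.33 and -0.03. Cct4 was lower in lung than in marrow in CD45 KO mice (-0.61 ± 0.23, edgeR adjusted p = 0.0351), with 167 to 195 CPM in lung and 237 to 334 CPM in marrow libraries, and lost the call in 6 of 9 fits without 1 library, also without mature CD45 KO replicate 1 (adjusted p = 0.0733). It was lost as well without a filter (0.216), with at least 10 counts in 3 libraries (0.0662), with only the libraries compared (0.0531) and with DESeq2's Wald test (0.158).

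In the endoplasmic reticulum, 6 of 11 listed chaperone genes were tested. Hsp90b1, the HSP90 of that compartment, rose in immature CD45 KO ILC2 to 416 ± 68.4 CPM, against 224 ± 18 CPM in immature control ILC2 (SD, n = 3 each, 0.90 ± 0.24 log2, edgeR adjusted p = 0.0296). All 6 values were positive there, with a median of 0.66, and 1 of 6 passed. The immature call was lost in 4 of 6 fits without 1 library, without immature CD45 KO replicate 2 (adjusted p = 0.187) and without each immature control replicate (0.0545 to 0.155), and with DESeq2's Wald test (0.224). Hsp90b1 also passed for the mean marrow effect, the contrast added after values had been seen (0.67 ± 0.18, edgeR adjusted p = 0.0175). That call was kept without mature CD45 KO replicate 1 (0.0138) and without mature control replicate 1 (0.0443). It was lost in 3 of 12 fits, without mature control replicate 3 (0.118), mature CD45 KO replicate 2 (0.0871) and immature CD45 KO replicate 2 (0.0625), and with the Wald test (0.134). In lung over marrow it was 0.11 ± 0.19 in CD45 KO mice (edgeR adjusted p = 0.743) and passed in control mice (0.72 ± 0.21, edgeR adjusted p = 0.00471), where the call was lost in 1 of 9 fits, without lung control replicate 2 (0.0779), and was kept without mature control replicate 1 (0.0113).

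The cochaperones of HSP90 and HSP70 were sparsely counted. Of 13 HSP90 cochaperone genes 3 were tested (Ptges3, Fkbp4 and Fkbp5), and of 13 exchange factors and cochaperones of HSP70 1 was (Hspa4), with 0 passing between CD45 KO and control or between lung and marrow. Of 12 other cytosolic J protein genes 5 were tested, and Dnajb6, which keeps aggregation-prone proteins soluble, was higher in lung by 1.12 ± 0.25 in CD45 KO (edgeR adjusted p = 0.000169) and by 0.69 ± 0.28 in control (edgeR adjusted p = 0.0485). The CD45 KO call was kept in all 9 fits without 1 library (7.18e-05 without mature CD45 KO replicate 1). The control call was lost in 8 of 9, with the highest adjusted p at 0.128 without lung control replicate 2 and 0.0695 without mature control replicate 1, and also with DESeq2 size factors (0.0506), without a filter (0.0830) and with the Wald test (0.155). Prefoldin and the other mitochondrial chaperones had 1 tested gene each, Pfdn5 and Hspa9, which did not pass. None of the 5 small heat shock protein genes and none of the 4 genes for heat shock factors and their regulators passed the low-count filter.

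**Figure D5:**
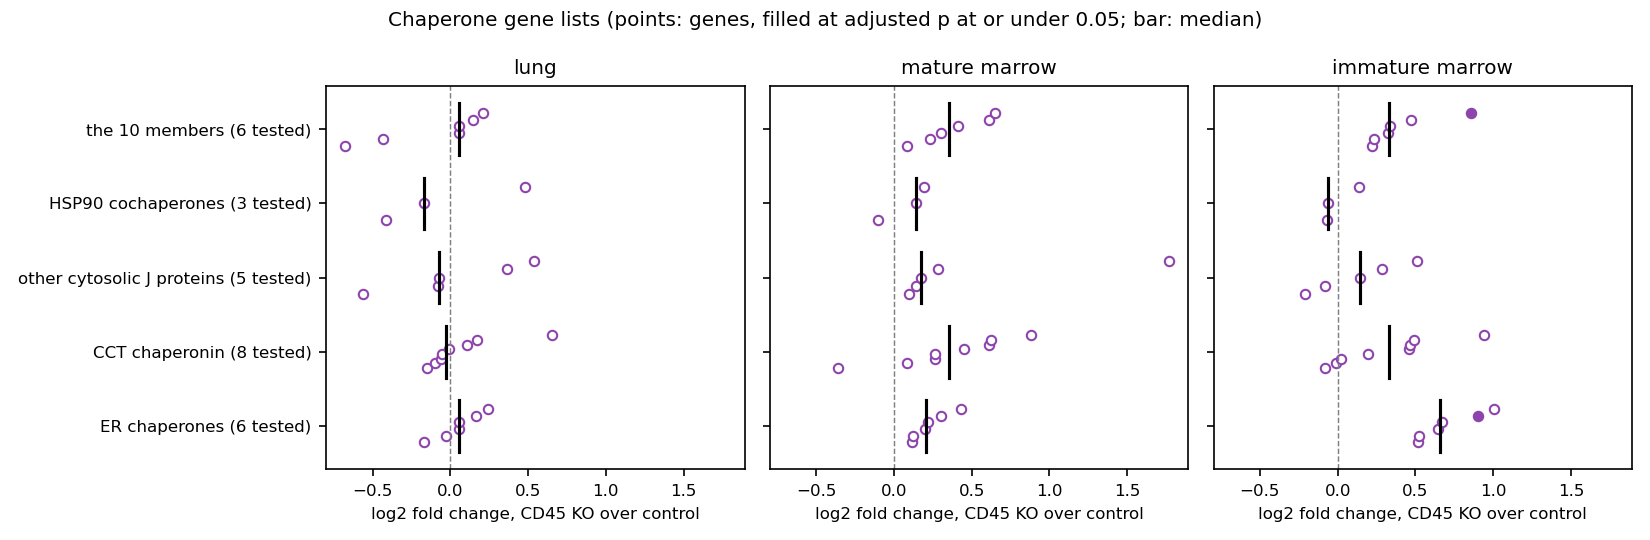
Log2 fold changes of CD45 KO over control (horizontal axis) for the tested genes of 5 chaperone lists in lung, mature marrow and immature marrow ILC2; points are genes, filled at an adjusted p of 0.05 or less, and black bars are list medians. The filled points are Hsp90aa1 (0.86) and Hsp90b1 (0.90) in immature ILC2, and the 10-gene list has 6 tested genes.

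Among themselves the members did not vary as a block. After each group's mean was subtracted, log2 levels over the 18 libraries correlated at r = 0.80 for Hsp90ab1 with Dnaja1 and at r = -0.47 for Hsp90aa1 with Dnaja1. The libraries share depth and scaling, and these are descriptions without a test. The mean standardised level of the 6 tested members was most like that of Tmsb4x (r = 0.78), Cct8 (0.77), Ran (0.76), Eif5a (0.73) and Tmem176b (0.71) over the 18 libraries. With group means subtracted it was most like Tcp1 (0.91), Rpl36a (0.88), Tmsb4x (0.86), Rps18 (0.84) and Eif5a (0.84), of which Tcp1 is a subunit of CCT.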

How the data were processed

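The deposited values are whole-number counts per gene symbol for the 18 libraries, made by the authors with no scaling between libraries; 0 columns were left unused. Per the labels' protocols, lysed sorted cells were reverse transcribed from oligo-dT primers that held molecular barcodes; the labels speak of 200 sorted cells and of 100 cells per tube. STAR and the mm10 build are named in the submitters' processing notes; the sources used here do not state the counting tool, the annotation, the use of strand or the collapse of barcodes. Gene positions came from GENCODE M21 (mm10).

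Counts were scaled with TMM, filtered with filterByExpr by group (minimum count 10) and fitted as 6 group means over 18 libraries with edgeR 4.0.16 in R 4.3.3. The quasi-likelihood test was used with Benjamini-Hochberg adjustment over 1916 genes and a threshold of 0.05. A standard error (SE) is the absolute log2 fold change over the square root of F. The common biological coefficient of variation was 0.0969. No pair of libraries in a group agreed within sampling noise, by chi-square tests.

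Alternatives were DESeq2 size factors, no filter, DESeq2 1.42.0 with its Wald test, a minimum of 10 counts in 3 or more libraries, fits of only the libraries compared, a replicate block and leaving out each library. The members and gene lists were chosen with earlier results of these data known. The text names the 10 members, passing genes of each list (up to 4 per list) and the 5 genes most alike on each scale. The steps were run on simulated data for the comparison of CD45 KO with control in each population, with the same spread set for all genes. The other contrasts were not simulated, and no result here rests on that run.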

Additional observations from a re-analysis of the deposited data

Results flagged for a closer look

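The CD45 effect on Hsp90aa1 passed as different between lung and marrow ILC2 in the main fit. The call was lost in 13 of the 18 fits without 1 library, with adjusted p up to 0.335. The effect in lung minus the mean effect in marrow was -1.15 (log2, edgeR adjusted p = 0.0448), with lung CD45 KO below lung control and immature CD45 KO above immature control. The lung effect alone did not pass (-0.68, edgeR adjusted p = 0.195). In mature ILC2, the other part of the marrow mean, the effect was 0.09 (edgeR adjusted p = 0.963). The difference was tested as an interaction in the fit of all 18 libraries, and 1.25% of all tested genes passed it. Hsp90aa1 was 1 of 6 members that could be tested. The other 4 members, Hsph1 among them, did not pass the low-count filter and have no test of this difference.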

How the results depend on the processing

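All 60 group levels kept within 1 SD with DESeq2 size factors, and medians over all tested genes moved by at most 0.04 (log2). Hspa8 over both marrow populations, Dnaja1 in both lung comparisons and Hsp90aa1 in lung over marrow in CD45 KO mice passed under every alternative other than leaving out a library. For the lung against marrow difference of CD45 effects, 0 members passed with DESeq2 size factors, without a filter, with at least 10 counts in 3 libraries and with the Wald test, which gave Hsp90aa1 no adjusted p. In immature ILC2 the Wald test called 0 members. The counts over all genes were 22 in lung, 9 for the lung against marrow difference of effects and 4 for mature against immature control without a filter, where 48, 24 and 1 passed in the main setting. With the Wald test they were 1 in mature (5), 10 in immature (32), 3 for mature against immature in CD45 KO (13) and 19 for both marrow populations (57), the main counts being in parentheses. With only the libraries compared they were 0 in mature, and for mature against immature 7 in CD45 KO and 3 in control. The cause was not tested. Signs turned for values that did not pass: Hsp90ab1 in lung over marrow in control to 0.10 without a filter, Hspe1 in lung over marrow in CD45 KO to 0.018 with at least 10 counts in 3 libraries, and Hspe1 and Dnaja1 for CD45 in lung to -0.025 and -0.024 with only the libraries compared.

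Leaving out 1 library gave 3 to 12 genes for CD45 in mature, 12 to 26 in immature and 29 to 42 in lung ILC2, 36 to 91 for both marrow populations (12 in mature and 91 there without mature CD45 KO replicate 1), 9 to 35 for the lung against marrow difference and 8 to 19 for mature against immature in CD45 KO. Members passing were 0 to 1 in immature ILC2 and for the lung against marrow difference, 0 to 2 for both marrow populations and 1 to 2 in lung over marrow in control. Values that did not pass changed sign in these ranges. For CD45, Hsp90aa1 in mature lay at -0.057 to 0.24, and in lung Hspe1 at -0.19 to 0.23 and Dnaja1 at -0.10 to 0.17. For lung over marrow in CD45 KO, Hsp90ab1 lay at -0.20 to 0.049 and Hspe1 at -0.27 to 0.095, and in control Hsp90aa1 at -0.24 to 0.25, Hsp90ab1 at -0.078 to 0.015 and Hspd1 at -0.18 to 0.35. For mature over immature in CD45 KO, Hsp90ab1 lay at -0.13 to 0.0091, and in control Hspa8 at -0.093 to 0.078, Hspd1 at -0.26 to 0.41, Hspe1 at -0.28 to 0.14 and Dnaja1 at -0.097 to 0.26. For lung against marrow effects Hsp90ab1 lay at -0.18 to 0.068, and for immature against mature effects Hsp90ab1 at -0.18 to 0.021 and Hspa8 at -0.17 to 0.027.

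Same-numbered libraries did not deviate together (r between -0.09 and 0.08 over 45 pairs, median -0.0032). These pairs mixed genotypes and tissues, and counting noise at this depth can hide a shared mouse, so the check cannot exclude pairing. The numbers were not taken as pairs because the labels do not say what a number stands for. With the replicate block, Hsp90aa1 in immature ILC2 was at 0.86 (adjusted p = 0.0294) and Hspa8 over both marrow populations at 0.38 (adjusted p = 0.0138), and no call of a member changed. Depth limits the genes with few counts: Hspa1a, Hspa1b, Hsph1 and Dnajb1 could not be compared, and the 5 calls of Hsp90aa1 and Hspa8 rest on 10 to 218 counts per library.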
